A study of Sus scrofa with 36 samples.

Results

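CSF1R, CSF2RB and SPI1 are 3 of the 12253 genes in the table, found by their identifiers ENSSSCG00000014441, ENSSSCG00000000136 and ENSSSCG00000013237. CSF1R encodes the receptor tyrosine kinase for the growth factors CSF1 and IL-34, on which macrophages depend for their survival and growth. CSF2RB encodes the common beta chain that carries the signal of the receptors for GM-CSF, IL-3 and IL-5. SPI1 encodes PU.1, a transcription factor of myeloid and B cells that binds regulatory regions of many genes of these lineages, the CSF1R gene among them. In adipose tissue, all these genes are known mainly from resident and recruited leukocytes rather than from adipocytes.

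The genes were measured by RNA-Seq in subcutaneous adipose tissue of 36 pigs from an intercross of Duroc and Göttingen Minipigs, with 19 males and 17 females. A genetic index of obesity placed 12 pigs in the lean (low index), 12 in the intermediate (index near the mean) and 12 in the obese (high index) group, and no treatment is given for any of them. Each group holds both sexes, 7 males and 5 females among the lean pigs and 6 of each sex in the intermediate and the obese group. Pigs were slaughtered at a similar weight, so the lean pigs were older on average, and age and group cannot be told apart here. A few pigs of a group may be full sibs and the libraries were spread over several lanes, but neither is assigned to single pigs in the sources used here.

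Depth was even, with 8735839 to 11755925 reads per pig over the genes of the table. Levels below are normalized counts, which are reads divided by the size factor of the library, and tests were run on the deposited log2 values with sex as a term. CSF1R had 272 to 1819 reads per lean pig, so the counting error was 3.64% at the mean, against a coefficient of variation of 66.7% between lean pigs. The skin markers KRT10 and DSP together reached 14389.6 normalized counts in lean replicate 7, a male, against at most 1039 in any other pig, and none of the obese against lean differences, pair correlations over all pigs and ratios of the 3 genes changed its call without that pig. The macrophage markers CD14, CD68, MRC1, MSR1 and C1QA were present in every group, whereas none of 11 listed dendritic cell markers could be matched to the table by symbol.

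Most lean pigs had less CSF1R than most pigs of the other groups. Normalized counts of CSF1R were 297 at the lowest, 508 at the median and 1659 at the highest in the lean pigs. In the intermediate pigs they were 415, 1140.2 and 1634, and in the obese pigs 647, 1163 and 1498. The highest lean pig therefore lay above every obese pig, and the groups overlapped. The means were 724 ± 483 (lean), 1051 ± 402 (intermediate) and 1124 ± 267 (obese; SD, n = 12 each). With sex taken into account, the median of the lean group was exceeded by 12 of 12 obese pigs, a count reached by 1.93% of all genes. The coefficient of variation was 66.7% among lean, 38.2% among intermediate and 23.8% among the obese pigs, and these spreads were not tested against each other.

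CSF2RB differed little between the groups. Its normalized counts ran from 173 over a median of 233 to 729 in lean pigs, from 124 over 307 to 571 in intermediate pigs, and from 220.1 over 268 to 688 in obese pigs. The means were 290.2 ± 153, 312 ± 118 and 332 ± 143 (SD, n = 12 each). The highest pigs were lean replicate 2 at 729, intermediate replicate 7 at 571, and obese replicates 2 and 4 at 688 and 539.6, and each group held such high values. With sex taken into account, 9 of 12 obese pigs exceeded the lean median, a count that 21.0% of all genes reached or passed. On the deposited values without the sex term 11 of 12 did, a count reached by 5.51% of genes.

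SPI1, like CSF1R, had its lowest mean and median in lean pigs. Its normalized counts were 111 at the lowest, 201 at the median and 601 at the highest in lean pigs, 191, 409 and 684 in intermediate pigs, and 223, 403 and 710.1 in obese pigs. The means were 252 ± 161, 383 ± 149.8 and 420.3 ± 141 (SD, n = 12 each). Again 12 of 12 obese pigs exceeded the lean median. The ranges of the groups nevertheless overlapped, and the percentage of genes whose obese and lean pigs did not overlap was 0.

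**Figure D1:**
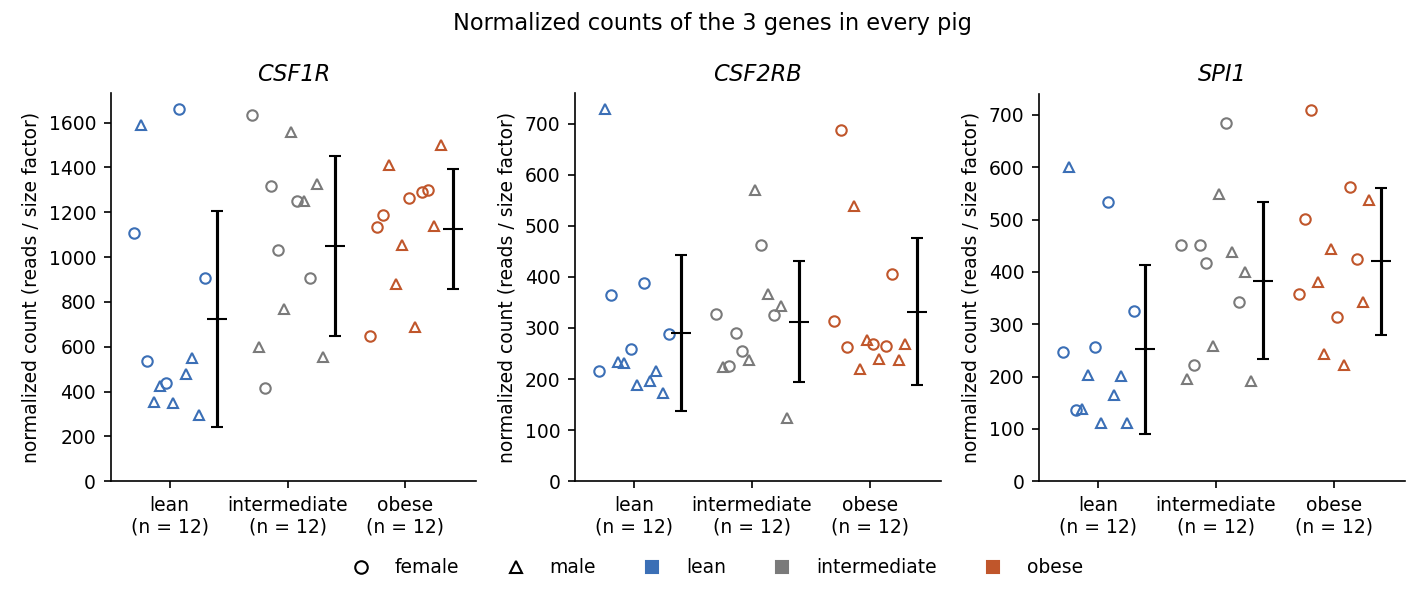
Normalized counts (reads divided by the size factor, y axis from 0) of CSF1R, CSF2RB and SPI1 in each of the 36 pigs by group (x axis), with females as circles, males as triangles, and the mean with its SD (n = 12) as a bar beside each group. Lean replicates 2 and 8 lie at 1591 and 1659 for CSF1R while the lean median is 508, and CSF2RB has a similar mean in all groups (290.2, 312 and 332).

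The question of the group comparison is which genes differ with the genetic index of obesity. Between obese and lean pigs, SPI1 was 0.83 higher on the log2 scale (SE 0.248, 95% interval 0.33 to 1.33), a fold of 1.78, with p = 0.00192 and an adjusted p of 0.106. CSF1R was 0.80 higher (SE 0.259, interval 0.28 to 1.33), a fold of 1.74, with p = 0.00373 and an adjusted p of 0.124. CSF2RB was 0.19 higher (SE 0.223, interval -0.26 to 0.64), with an adjusted p of 0.742. None of the 3 genes passed the adjusted threshold of 0.05, and neither did any other gene with a higher value in obese pigs (0% of 12253 in limma), while 835 genes (6.81%) were higher at an unadjusted p under 0.05. Only 5 genes, 0.0408% of the table, passed with lower values. By p, SPI1 ranked 220, CSF1R 369 and CSF2RB 6528 among all genes.

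The calls for SPI1 and CSF1R depended on single lean pigs. Lean replicate 2, a male, and lean replicate 8, a female, were the highest lean pigs for CSF1R (1591 and 1659) and for SPI1 (601 and 534), and also for CSF2RB (729 and 388). Without lean replicate 2, SPI1 differed by 0.99 (adjusted p = 0.0182) and CSF1R by 0.94 (adjusted p = 0.0290), both past the threshold. At this setting 1.56% of all genes were called higher in obese pigs. Without lean replicate 8, both genes differed by 0.93, with adjusted p of 0.0437 for SPI1 and 0.0485 for CSF1R, and 0.726% of all genes were called higher. CSF2RB reached 0.34 at most, without lean replicate 2. No source used here gives a reason to leave out either pig. The summed level of 11 macrophage markers was also highest in these lean pigs, 14692 in replicate 2 and 15508 in replicate 8, against a lean median of 6221.

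For SPI1 and CSF1R, the fitted level of intermediate pigs lay nearer to that of the obese than of the lean pigs. These distances were not compared in a test. Against lean, SPI1 differed by 0.67 (SE 0.248, p = 0.0110, adjusted p = 0.287) and CSF1R by 0.63 (SE 0.259, p = 0.0195, adjusted p = 0.319). Against intermediate pigs, obese pigs differed by 0.17 for both genes, with intervals of -0.34 to 0.67 for SPI1 and -0.35 to 0.69 for CSF1R. CSF2RB differed by 0.10 and 0.09 in these comparisons. No gene of the table passed in either comparison (0%); at an unadjusted p under 0.05, 12.5% of genes differed between intermediate and lean pigs and 4.28% between obese and intermediate pigs. A linear trend over the groups gave 0.41 per step for SPI1 (adjusted p = 0.105), 0.40 for CSF1R (adjusted p = 0.124) and 0.10 for CSF2RB (adjusted p = 0.741), where 0.0245% of genes passed. These comparisons share pigs, and the order of intermediate and obese pigs could not be set for any of the 3 genes.

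Males had lower fitted values than females for all 3 genes, none of which passed. The log2 difference, male minus female, was -0.46 for SPI1 (SE 0.203, p = 0.0283, adjusted p = 0.215), -0.31 for CSF1R (adjusted p = 0.445) and -0.24 for CSF2RB (adjusted p = 0.513). In all, 1.23% of genes were called lower and 0.955% higher in males. Between obese and lean males CSF1R differed by 1.16 (interval 0.46 to 1.87, adjusted p = 0.175), which did not pass. Its median was 423 normalized counts in 7 lean males and 1096 in 6 obese males. Between obese and lean females CSF1R differed by 0.36 (interval -0.41 to 1.13, adjusted p = 0.678). Its median was 905 in 5 lean females and 1225 in 6 obese females. The difference of these differences was 0.80 (SE 0.514, p = 0.126, adjusted p = 0.50), so unequal differences in the sexes were not shown. In this test 0.00816% of genes passed. For SPI1 the fitted differences were 0.94 in males and 0.70 in females, and for CSF2RB 0.22 and 0.15.

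**Figure D2:**
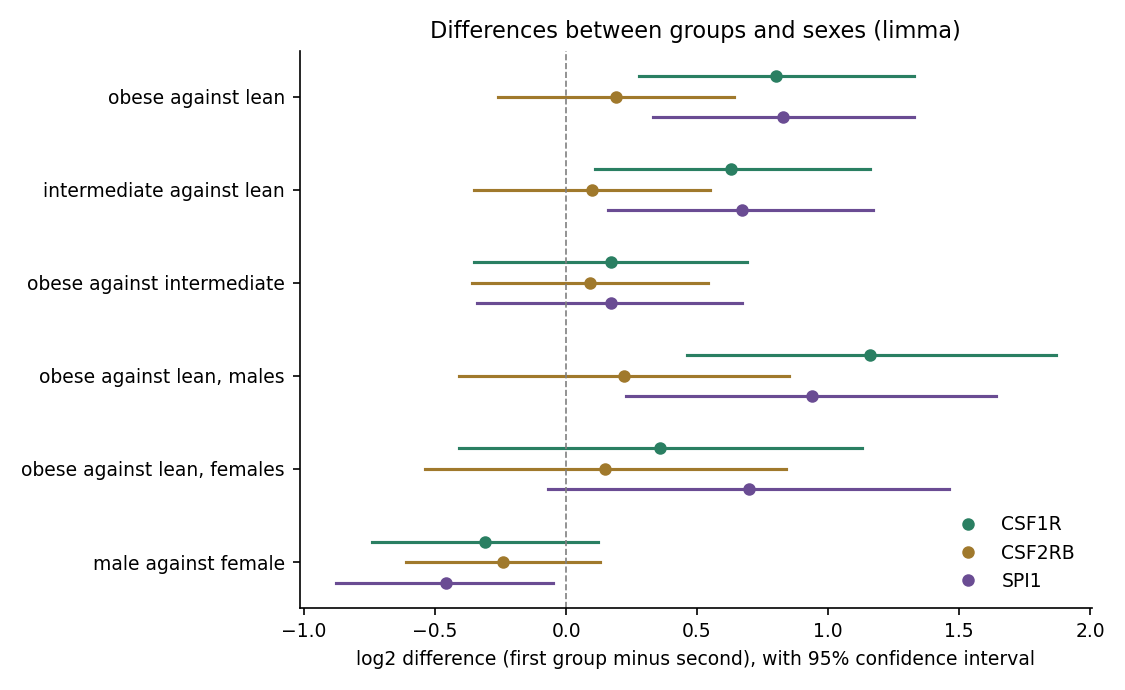
Fitted log2 differences (x axis, first group minus second) of CSF1R, CSF2RB and SPI1 from limma with their 95% confidence intervals as lines, for 6 comparisons (y axis). The intervals of SPI1 and CSF1R lie above 0 for obese against lean (0.83 and 0.80) and for intermediate against lean (0.67 and 0.63), and those of CSF2RB include 0 in every comparison.

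From pig to pig the 3 genes went up and down together, CSF1R and SPI1 with the highest correlation. The paper had placed CSF1R and SPI1 in the same module, a set of genes with correlated levels over these pigs. Their r and its p-values, here and within the groups, therefore describe a relation that the choice of genes favoured. Over the 36 pigs, after the sex term, Pearson's r of CSF1R and SPI1 was 0.886 and Spearman's rho 0.881 (permutation p = 0.00001, the smallest that 100000 permutations give; adjusted p = 1.5e-05 over the 3 pairs). CSF1R and CSF2RB had r = 0.625 and rho = 0.676 (permutation p = 6.0e-05, adjusted p = 6.0e-05), and CSF2RB and SPI1 had r = 0.646 and rho = 0.731 (permutation p = 0.00001, adjusted p = 1.5e-05). Without the 2 pigs that lay farthest from the median of the first gene, r was 0.870, 0.582 and 0.605. With the groups also taken out as a term, r was 0.850, 0.644 and 0.678. All values of a pig come from 1 library and 1 piece of tissue, and the share of leukocytes in it was not measured. In bulk tissue, fewer cells of a type and less RNA per cell cannot be told apart.

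Within the groups the relation of CSF1R and SPI1 was present each time, with r of 0.897 (lean), 0.915 (intermediate) and 0.672 (obese; n = 12 each; permutation p, adjusted over 9 tests, 0.000690, 0.000270 and 0.0210). Spearman's rho was 0.727, 0.867 and 0.594 (adjusted permutation p = 0.0209, 0.00252 and 0.0723), so the obese group passed by r alone. Without the 2 pigs farthest from the median, r of this pair was 0.610, 0.851 and 0.598. CSF2RB went with its partners in intermediate pigs, at r = 0.775 with CSF1R and 0.881 with SPI1 (adjusted permutation p = 0.00497 and 0.000270). Among lean pigs these values were 0.743 and 0.771 (adjusted permutation p = 0.0210 and 0.0208), but they rested on 2 pigs of the group, since without the 2 farthest from the median r was -0.188 and -0.0631. The rho values of these lean pairs were 0.329 and 0.587 (adjusted permutation p = 0.297 and 0.0723). Among obese pigs r was 0.327 and 0.268 (adjusted permutation p = 0.336 and 0.405). The difference between obese and lean pigs did not pass for any pair (permutation test of the difference in Fisher's z, adjusted p = 0.509 for each of 3). Without lean replicate 3, the difference for CSF2RB and SPI1 passed at -1.34 (adjusted p = 0.0363). By sex, CSF1R and SPI1 had r = 0.972 in the 19 males and 0.718 in the 17 females. In females alone the relations of CSF2RB no longer passed, at r = 0.277 with CSF1R (adjusted p = 0.28) and 0.341 with SPI1 (adjusted p = 0.269), whereas in males they were 0.773 and 0.788. A difference between the sexes in these relations was not tested.

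**Figure D3:**
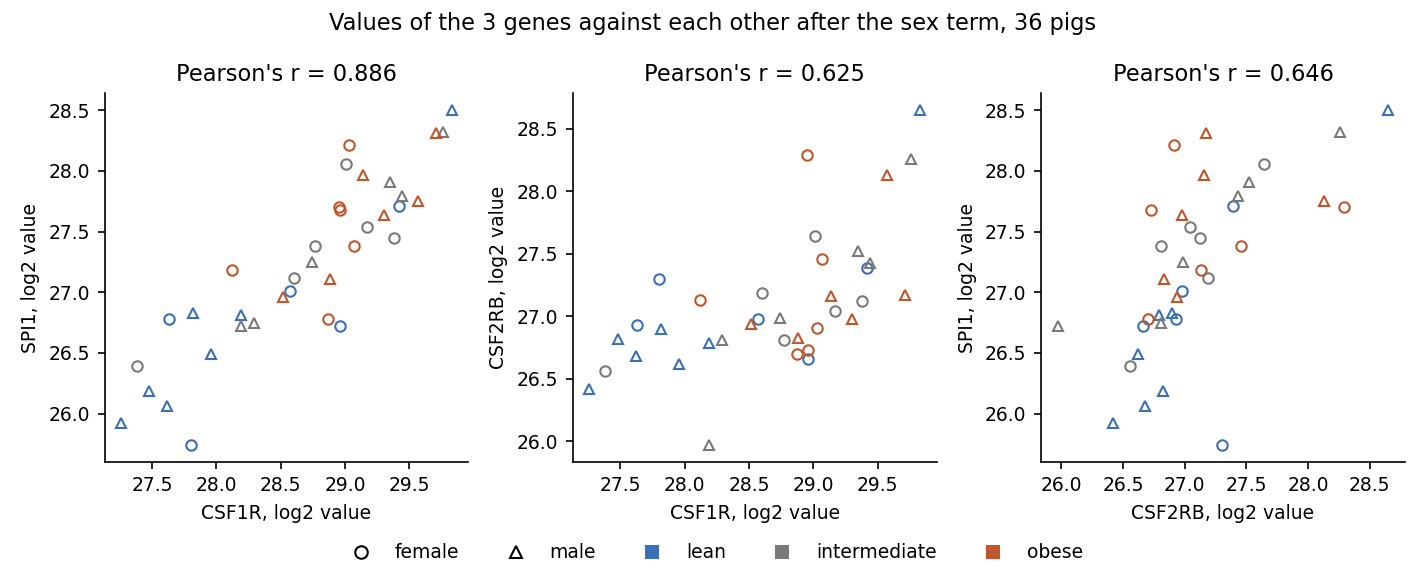
Log2 values after the sex term of the 3 pairs of genes, 1 point per pig (36 pigs, colour for group, circle for female, triangle for male), with each axis on the deposited log2 scale. Points of CSF1R and SPI1 lie along a line (r = 0.886), those of either gene with CSF2RB are more scattered (r = 0.625 and 0.646), and the highest point of CSF2RB is lean replicate 2.

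The ratio of 2 genes within a pig does not depend on the size factor of the library, and it tests directly whether they differ unequally between the groups. The log2 ratio of CSF1R to CSF2RB was 0.56 at the lowest, 1.01 at the median and 2.36 at the highest in lean pigs, 0.88, 1.73 and 2.32 in intermediate pigs, and 0.72, 1.96 and 2.48 in obese pigs. It was above the lean median in 11 of 12 obese and 11 of 12 intermediate pigs. Its obese minus lean difference was 0.61 (SE 0.236, interval 0.12 to 1.10), a fold of 1.52 in the ratio, with a 2-sided permutation p within sexes of 0.0195 (adjusted p = 0.0292 over the 3 ratios).

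The log2 ratio of SPI1 to CSF2RB was -1.42, -0.23 and 0.46 in lean pigs, -0.19, 0.24 and 0.72 in intermediate pigs, and -0.50, 0.21 and 1.44 in obese pigs, again as lowest, median and highest. Of the pigs, 12 of 12 intermediate and 10 of 12 obese lay above the lean median, and 5 obese pigs lay above every lean pig. Its difference was 0.64 (SE 0.232, interval 0.16 to 1.12), a fold of 1.56, with a permutation p of 0.00937 (adjusted p = 0.0281). The ratio of SPI1 to CSF1R differed by 0.03 (interval -0.30 to 0.37, permutation p = 0.840) and had the smallest spread, with an SD of 0.35 over all pigs against 0.58 and 0.56. CSF1R and SPI1 were thus higher relative to CSF2RB in obese pigs, and a difference relative to each other was not detected. These levels are per gene and not per length, so the sign of a ratio does not rank the genes. Ratios of other genes to CSF2RB were not computed, so neither counts nor differences are shown to be particular to these genes.

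Single pigs changed whether these ratios passed. Leaving out lean replicate 3, obese replicate 11 or obese replicate 12 raised the adjusted permutation p of both ratios to 0.0567, 0.0523 and 0.0566, and without lean replicate 6 that of CSF1R to CSF2RB was 0.0525. The differences themselves stayed between 0.53 and 0.72 for CSF1R to CSF2RB and between 0.51 and 0.72 for SPI1 to CSF2RB over all 24 lean and obese pigs left out in turn. In males alone the differences were 0.94 and 0.72 (exact permutation test, adjusted p = 0.00175 and 0.0192). In females alone they were 0.21 and 0.55 (exact permutation test, adjusted p = 0.619 and 0.419).

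**Figure D4:**
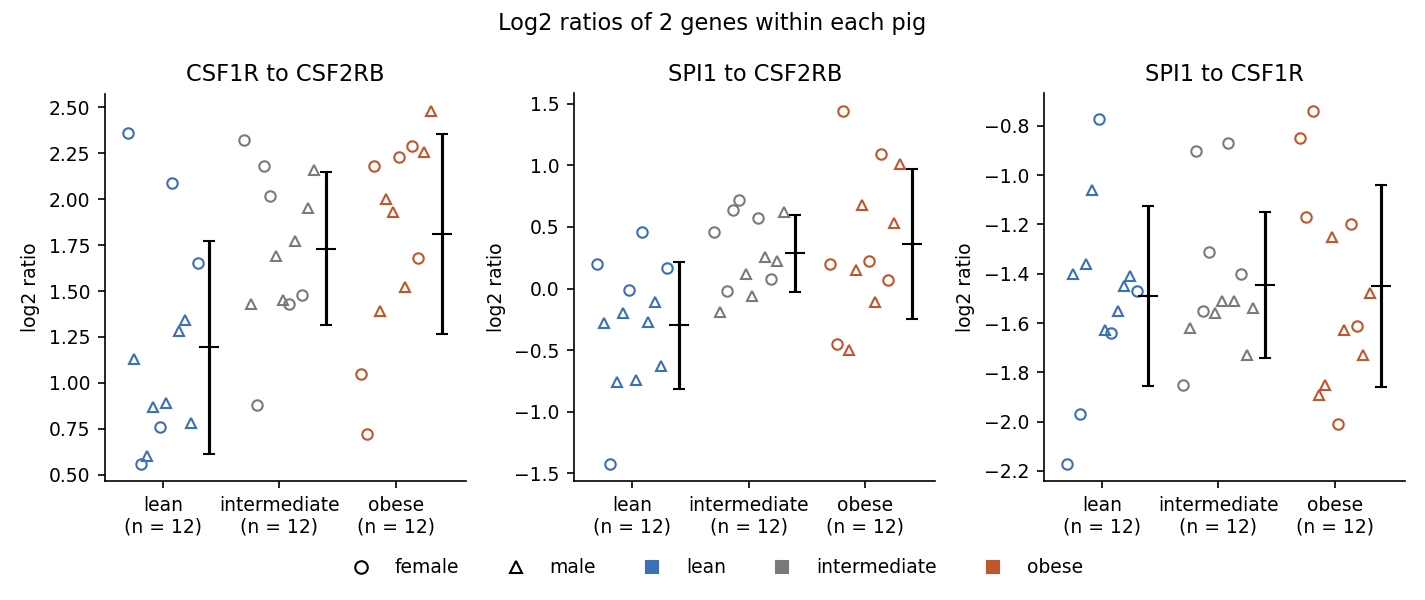
Log2 ratios (y axis) of CSF1R to CSF2RB, SPI1 to CSF2RB and SPI1 to CSF1R in each pig by group (x axis), with females as circles, males as triangles, and the mean with its SD (n = 12) as a bar. The means of the first ratio are 1.19, 1.73 and 1.81 and those of the second -0.30, 0.29 and 0.36 in lean, intermediate and obese pigs, while those of the third are -1.49, -1.45 and -1.45.

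The genes whose levels followed each member most closely were named by their r over the 36 pigs after the sex term, as a description. Next to CSF1R stood a gene without a symbol in the table of names, ENSSSCG00000021886, at r = 0.986. It was followed by CD14, the co-receptor for bacterial lipopolysaccharide (r = 0.953), F13A1, a coagulation factor made by macrophages (r = 0.95), and STAB1, a scavenger receptor (r = 0.938). CD53, a tetraspanin of leukocytes (r = 0.923), and TYROBP, an adaptor of myeloid receptors (r = 0.908), were also among its 10 nearest. The coordinates of the unnamed gene were not used here, so shared reads with CSF1R were not checked.

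Next to SPI1 stood FCER1G, the common gamma chain of Fc receptors (r = 0.976), LAPTM5, a lysosomal protein of blood cells (r = 0.965), ITGB2, the beta chain of the leukocyte integrins (r = 0.956), and EVI2B (r = 0.955). FERMT3, an activator of leukocyte integrins, CCR1, a chemokine receptor, VAV1, a guanine nucleotide exchange factor of blood cells, and CD68, a lysosomal marker of macrophages, followed at r = 0.951, 0.948, 0.947 and 0.944.

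CSF2RB had looser companions. IL10RA, a chain of the interleukin-10 receptor, was the nearest at r = 0.785, followed among named genes by LCP2, an adaptor of blood cells (r = 0.770), NCF4, a subunit of the phagocyte oxidase (r = 0.762), and FGD2 (r = 0.752). PSAP, the precursor of the saposins, PIK3CG, a lipid kinase of leukocytes, and ARRB2, a beta arrestin, had r of 0.745, 0.739 and 0.731. No gene reached r = 0.8 with CSF2RB, whereas 98 did with CSF1R and 160 with SPI1. The 3 lists of 10 nearest genes had 0 genes in common for any pair, although SPI1 ranked 22 by its r with CSF1R. Taken within groups and sexes, 9 of the 10 genes nearest to CSF1R, 8 of those nearest to CSF2RB and 10 of those nearest to SPI1 were again among the nearest 10.

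Genes around the 3 members were described by their roles. None of 8 listed ligands could be matched to the table by symbol. Of 8 further receptors, 4 could be matched. CSF3R, the receptor of G-CSF on neutrophils and monocytes, ran from 6.34 over a median of 47.0 to 239 normalized counts in lean pigs, from 14.8 over 145 to 270.5 in intermediate and from 60.8 over 121 to 416 in obese pigs. It differed by 1.67 between obese and lean pigs (SE 0.499, adjusted p = 0.106). KIT, the receptor of stem cell factor, differed by 0.40 (adjusted p = 0.627), PDGFRA by 0.18 (adjusted p = 0.769) and PDGFRB, which belongs to the same kinase family as CSF1R, by -0.18 (adjusted p = 0.530).

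Of the kinases, adaptors and transcription factors that act below the receptors, 20 of 22 had a row. None passed the adjusted threshold, 7 were higher and 0 lower at an unadjusted p under 0.05 (6.81% and 7.88% of all genes), and the list's median difference was 0.15 against -0.01 over all genes. Among the genes with the smallest p values were PIK3R5, a regulatory subunit of the kinase PIK3CG (0.86, SE 0.206, adjusted p = 0.0709), and PIK3CD, a lipid kinase of leukocytes (0.61, SE 0.204, adjusted p = 0.134). Of the kinases JAK1 and JAK2, which bind cytokine receptors, the first differed by 0.11 and the second by 0.40 (adjusted p = 0.198). STAT5A, SRC and FYN differed by 0.01, 0.00 and 0.35. Among the 9 measured inhibitors of CSF receptor signalling, 4 were higher at an unadjusted p under 0.05 (6.81% of all genes), with a median difference of 0.25. They were PTPN6, the phosphatase SHP-1 (0.65, adjusted p = 0.129), DOK2, an adaptor that restrains kinases (0.83, adjusted p = 0.120), PTPRO, a receptor phosphatase (0.98, adjusted p = 0.134), and INPP5D, the lipid phosphatase SHIP1 (0.54, adjusted p = 0.186). The rest of the list, CBL, CBLB, SOCS1, DOK1 and PTPN11, differed by 0.12, 0.22, 0.12, 0.25 and 0.04.

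Genes listed as targets of PU.1 had higher values in obese pigs for the most part, while factors that act beside PU.1 were spread around 0. Of 28 listed targets 20 had a row, 16 of them were higher and 0 lower at an unadjusted p under 0.05 (6.81% and 7.88% of all genes), and none passed the adjusted threshold. The median difference of the 20 was 0.75. Among the smallest p values were those of ITGB2 (1.25, SE 0.322, adjusted p = 0.0740) and LCP1, the leukocyte plastin (1.36, SE 0.382, adjusted p = 0.0869). TNFRSF11A and FES, also on the list, differed by -0.15 and -0.02. Their median r was 0.865 with SPI1, 0.771 with CSF1R and 0.591 with CSF2RB, against 0.0440, 0.0306 and 0.0548 over all genes, and 19 of the 20 had a higher r with SPI1 than with CSF2RB. The count was also 19 of 20 for a higher r with CSF1R than with CSF2RB, and among the macrophage markers described below it was 10 of 11 for either gene. The share of all genes with such a higher r was not counted. These counts are therefore not shown to be particular to PU.1 targets. Of 12 measured partner factors of PU.1, 1 was higher and 1 lower at an unadjusted p under 0.05, close to the 6.81% and 7.88% of all genes, EGR2 at 0.93 (SE 0.368, adjusted p = 0.212) and GATA2 at -0.37 (SE 0.158, adjusted p = 0.25), with a median of 0.05. CEBPA, EGR1, KLF4 and JUNB differed by 0.23, -0.33, -0.05 and 0.11.

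**Figure D5:**
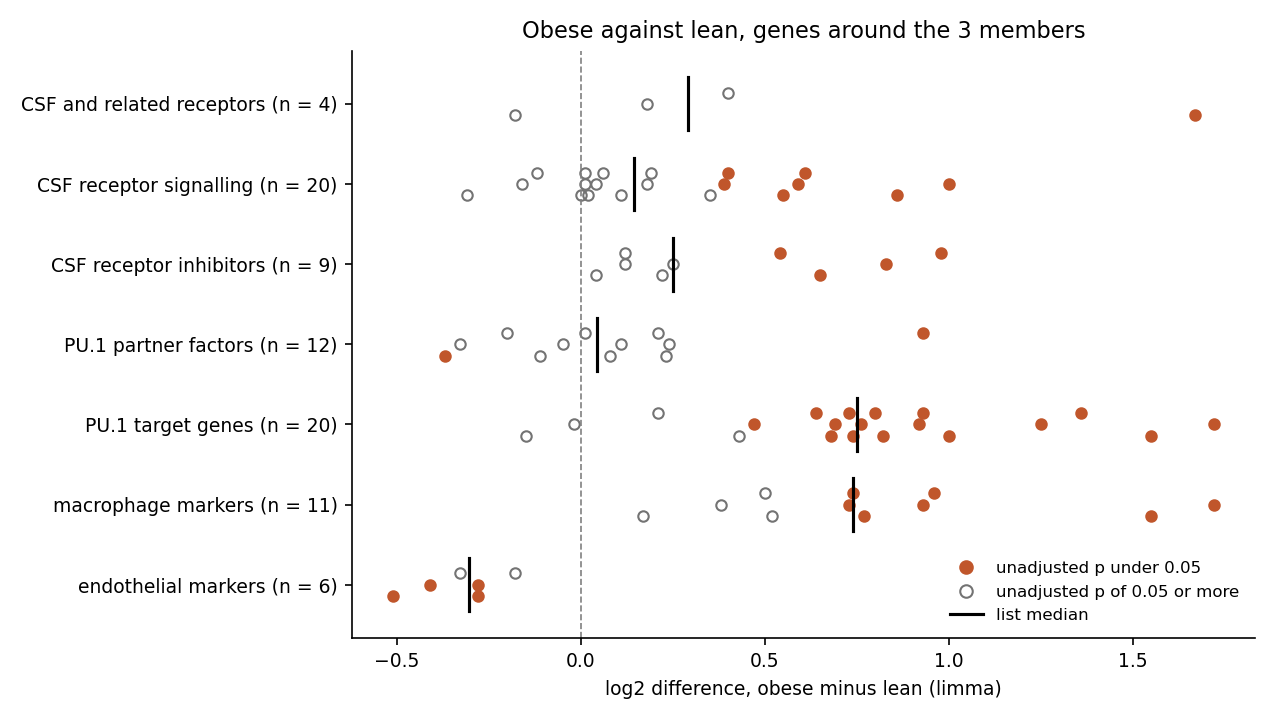
Log2 difference between obese and lean pigs (x axis, limma) of each measured gene in 7 lists (y axis), filled where the unadjusted p is under 0.05, with the list median as a vertical line. The medians of the PU.1 target genes (0.75) and the macrophage markers (0.74) lie to the right, that of the PU.1 partner factors is 0.05, and that of the endothelial markers is -0.31.

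Most markers of macrophages were higher in the pigs with more CSF1R and SPI1. Over the 11 measured, the median r was 0.762 with CSF1R, 0.773 with SPI1 and 0.515 with CSF2RB. FOLR2 had the lowest r with CSF1R (0.259) and with SPI1 (0.115), and differed by 0.17 between obese and lean pigs (adjusted p = 0.525). All 11 measured macrophage markers were above 0 between obese and lean pigs, as were 47.5% of all genes, 7 of the 11 at an unadjusted p under 0.05 (6.81% of all genes), with a median of 0.74. Their summed normalized count ran from 4401 over a median of 6221 to 15508 in lean pigs, from 6205 over 11103 to 17019 in intermediate pigs and from 7988 over 11959 to 19167 in obese pigs. Of these markers, C1QA, a chain of complement C1q, differed by 0.96 (adjusted p = 0.119), LYZ, lysozyme, by 1.72 (adjusted p = 0.106) and MSR1, a scavenger receptor, by 1.55 (adjusted p = 0.114). CD68, MSR1, LYZ, CD14 and CTSS are on this list and on that of PU.1 targets. The 6 endothelial markers were all below 0, where 47.5% of all genes were above 0. At an unadjusted p under 0.05, 4 of them were lower, as were 7.88% of all genes, and the list's median was -0.31. TIE1, a receptor kinase of vessels, differed by -0.51 (adjusted p = 0.0709), and the median r of this list was -0.499 with CSF1R, -0.403 with SPI1 and -0.0649 with CSF2RB. The 7 adipocyte markers had a median of 0.10, with 2 higher at an unadjusted p under 0.05 (6.81% of all genes). They were the lipid droplet proteins CIDEC at 0.54 (adjusted p = 0.106) and PLIN4 at 0.74 (adjusted p = 0.241). The 8 fibroblast or progenitor markers had a median of 0.11, with 1 higher at that threshold (6.81% of all genes), PI16 at 0.98 (adjusted p = 0.255). BANK1, the B cell marker with a row, differed by 0.88 (adjusted p = 0.0967) and had r = 0.737 with SPI1, 0.653 with CSF1R and 0.511 with CSF2RB. The part of cell composition in the values of CSF1R, CSF2RB and SPI1 was not tested.

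Between the sexes, some listed genes did pass. PIK3CD was lower in males by a log2 difference of -0.61 (adjusted p = 0.0446), and so was TNFRSF11A, the receptor RANK, at -0.41 (adjusted p = 0.0268). Of the cell type markers, the lipases LIPE (-0.55, adjusted p = 0.00534) and PNPLA2 (-0.37, adjusted p = 0.0483) were lower in males. The matrix genes DCN (0.62, adjusted p = 0.0222) and COL1A2 (0.97, adjusted p = 0.00676) were higher in males.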

How the data were processed

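RNA-Seq was performed by the authors on poly-A RNA of subcutaneous adipose tissue from 36 pigs. The submitters' processing notes and the methods name FastQC, STAR with Sscrofa10.2, HTSeq and DESeq; versions of the tools are not given in the sources used here. The authors removed genes with low values and deposited log2 values from the voom function of limma. A deposited value equals log2((reads + 0.5) / (size factor + 1)) up to a constant, which was read from the spacing of low values, and 99.9% of the reads so recovered lie within 0.1 of a whole number. The gender correction named in the methods is therefore absent from these values. Size factors were 0.796 to 1.18, and the lowest counts were 6 or 7 reads per column.

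Groups and sexes came from the sample labels, and each pig is 1 replicate. Gene symbols came from a table of gene names, which named 8320 of 12253 identifiers. Genes were tested with limma 3.58.1 in R 4.3.3, with an intensity trend and terms for group and sex. P-values were adjusted by Benjamini-Hochberg over all genes at 0.05, and the script was checked on simulated data. The trend used scores of -1, 0 and 1. Correlations used values after a linear sex term, and ratios were compared by permutation within sexes with 100000 resamples (Python 3.11.15, numpy 2.4.6, pandas 2.3.3, scipy 1.17.1). Intervals are 95%.

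Named genes are the 3 members, every listed receptor with a row, the genes of each other list past the threshold or with the 3 smallest p values, the most abundant cell type markers and the 10 genes nearest to each member; a few further list genes, such as JAK1, JAK2, FES and CBL, were named after their values were seen, and some listed genes are not reported here by name. The members and lists were chosen with earlier results of these data known. Alternatives were other scalings, a filter on the lowest 25% of genes, voom weights, no sex term, single sexes and leaving out each pig. Transcript lengths were not used, and gene order and overlap of neighbouring genes were taken from RefSeq on Sscrofa11.1, not from the build of the files.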

Additional observations from a re-analysis of the deposited data

Results flagged for a closer look

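Within each group and sex, 18 sets of 5 to 7 pigs were examined for a highest or lowest value far from its neighbours (Dixon's test at 95%, on the deposited log2 values), which chance alone flags in about 1 of 20 sets, and 5 values stood out. Lean replicate 2 was the highest of the 7 lean males for all 3 genes. It had 1591 normalized counts of CSF1R where the next male had 548, it had 729 of CSF2RB where the next had 234, and it had 601 of SPI1 where the next had 202. Among the 6 obese females, replicate 1 was the lowest for CSF1R at 647, with the next at 1133. Among the 6 obese males, replicate 4 was the highest for CSF2RB at 539.6, with the next at 276. No cause was tested for any of these values.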

How the results depend on the processing

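Between obese and lean pigs the 3 genes stayed higher in obese pigs under every alternative. None passed except CSF1R and SPI1 without lean replicate 2 or 8, as given above. With 1 pig left out at a time, the difference ran from 0.72 to 0.94 for CSF1R, from 0.09 to 0.34 for CSF2RB and from 0.73 to 0.99 for SPI1. The number of genes past the threshold, 5 with all pigs, ran from 1 without lean replicate 3 to 292 without lean replicate 2. It was 3 without the sex term, 17 with lean and obese pigs alone, 12 without the intensity trend and 1 without the lowest 25% of genes. It was 9 with the median of each pig subtracted and 9 with reads over the whole size factor (2 higher and 7 lower each, against 0 and 5). In females alone it was 21 (18 higher and 3 lower), and in males alone 2 (0 higher and 2 lower). The trend over groups had 3 genes, 5 without the intensity trend and 6 with the median subtracted. The interaction of sex and group had 1 gene, 2 without the intensity trend and 0 with the median subtracted or over the whole size factor (limma). At an unadjusted p under 0.05 this interaction had 1219 genes higher and 358 lower as deposited, against 789 higher and 660 lower with the median subtracted and 789 and 667 over the whole size factor, so the split depended on the scaling. The interaction for CSF2RB, 0.07, turned to -0.01 with the median subtracted and to -0.02 over the whole size factor.

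For the pairs, r fell to 0.277 (CSF1R and CSF2RB) and 0.341 (CSF2RB and SPI1) in females alone. Leaving out 1 pig at a time gave 0.873 to 0.904 for CSF1R and SPI1, 0.585 to 0.654 for CSF1R and CSF2RB and 0.595 to 0.720 for CSF2RB and SPI1. The difference in Fisher's z between obese and lean pigs for CSF1R and CSF2RB turned from -0.617 to 0.0806 with Spearman's correlation. With 1 pig left out it ran from -0.813 to 0.0429, reversing only without lean replicate 2, from -1.05 to -0.225 for CSF1R and SPI1, and from -1.34 to -0.103 for CSF2RB and SPI1. The ratios of CSF1R and of SPI1 to CSF2RB fell to 0.21 and 0.55 in females alone and ran from 0.53 to 0.72 and from 0.51 to 0.72 without single pigs. The ratio of SPI1 to CSF1R, 0.03, was -0.23 in males alone and ran from -0.05 to 0.10 without single pigs, below 0 without lean replicate 1 or 3 or obese replicate 1 or 3. The causes were not tested. Between obese and lean pigs no list median changed by more than 0.02 with either scaling. No paired analysis was possible because the labels give no replicate number that pigs of different groups share.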

Other observations

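Genes that lie beside the 3 members in the RefSeq gene order of the later assembly Sscrofa11.1 had unlike relations with them. On chromosome 5, the gene after CSF2RB is NCF4, which also ranked 4 by its r with CSF2RB (r = 0.762). On chromosome 2, the gene after CSF1R is PDGFRB, with r = -0.0190, and SPI1 lies between SLC39A13, a zinc transporter (r = 0.265), and MYBPC3, which encodes a myosin binding protein of the heart (r = 0.687). No gene body of these neighbours overlaps that of the member in this assembly. MYBPC3 was low, with means of 20.4 ± 7.23 (lean), 32.5 ± 9.64 (intermediate) and 29.9 ± 9.79 (obese) normalized counts (SD, n = 12 each). It differed by 0.52 between obese and lean pigs (SE 0.233, adjusted p = 0.284), and TNNC2, the skeletal muscle marker with a row, had an r of 0.244 with SPI1.

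Among the T and NK cell markers, r with SPI1 was high for NKG7 alone. NKG7, a granule protein of cytotoxic cells, had r = 0.872 with SPI1, 0.651 with CSF1R and 0.670 with CSF2RB, and differed by 0.84 between obese and lean pigs (SE 0.294, adjusted p = 0.156). CD2, CD8A, LCK and PRF1 had r between -0.0518 and 0.152 with SPI1.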
